A study of Mus musculus with 30 samples.

Results

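The catalytic core of Polycomb repressive complex 1 (PRC1) was followed here through 10 genes, Rnf2, Ring1, Bmi1, Pcgf1, Pcgf2, Pcgf3, Pcgf5, Pcgf6, Rybp and Kdm2b. They were taken by symbol from 38720 genes listed in each deposited comparison of newborn mouse retina, and all 10 were present in both. PRC1 is a ubiquitin ligase that marks histone H2A at silenced genes. Every PRC1 holds a RING protein, Rnf2 (RING1B) or its paralogue Ring1 (RING1A), paired with a single PCGF protein. The PCGF protein helps to set the kind of complex. Pcgf2 (MEL18) and Bmi1 (PCGF4) form canonical complexes, whose CBX subunits bind the histone mark laid down by the methyltransferase Ezh2 in PRC2. Variant complexes hold Rybp or Yaf2 in place of a CBX protein and do not need that mark. Among them, Pcgf1 works with Kdm2b, which binds unmethylated CpG dinucleotides through a zinc finger, Pcgf3 and Pcgf5 form a closely related pair, and Pcgf6 joins Mga, Max, E2f6 and L3mbtl2. In the retina, Polycomb proteins are known for acting in progenitor division and in the choice of neuronal fate.

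Mice in the study carried a Math5Cre driver with floxed Ezh2 alleles, and some also a floxed allele of G9a (Ehmt2), a methyltransferase of histone H3. Math5 (Atoh7) is expressed in progenitors that give rise to retinal ganglion cells (RGCs), among other cells. Recombination is expected in all descendants of those progenitors, and retinal cells outside that lineage can keep an intact Ezh2. Which cells had recombined in either fraction was not measured here, so the non-RGC fraction cannot be taken as intact for Ezh2. Retinas were taken at P0, the day of birth, dissociated with papain, and split with magnetic beads carrying antibody to CD90 (Thy1). The bound fraction is labelled RGC and the remaining cells non-RGC, and these names are used below. Neither name describes a pure fraction. The bound libraries also held microglial, progenitor and proliferation RNA, as given below. Of 30 samples in the series, 18 were poly(A) RNA and 12 were chromatin immunoprecipitation or input samples that were not analysed here. The deposited comparisons cover 9 RNA libraries, 3 each of mutant-labelled non-RGC cells, mutant-labelled RGCs and wild type (WT) RGCs, and the same 3 mutant-labelled RGC libraries enter both comparisons. The tables name the mutant only as "mut": the sample labels hold Math5Cre; Ezh2f/fG9af/+ (dKO) and Math5Cre; Ezh2f/f (sKO) groups, and the sources used here do not say which of them the tables used. WT samples are labelled C57BL/6, with no driver and no floxed allele named, so the Cre driver, the floxed genotype and any difference in strain cannot be told apart between mutant-labelled and WT RGCs. The strain background of the mutants, the sex and the number of pups per library were not stated, so p-values measure only the spread between these libraries. Libraries were numbered 1 to 3 within each group by falling size factor, which ties no number to a pup or to another group's library.

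Ezh2 is the gene that all mutant labels target, and its gene-level count did not fall. Ezh2 had 1944, 1924 and 1851 normalised counts in mutant-labelled RGCs, against 1144, 1154 and 1568 in WT RGCs, or 0.58 higher on the log2 scale (SE 0.13; adjusted p = 0.0292, limma). A count over the whole gene does not separate the floxed exons from the rest, so it cannot check the label, and each direction below rests on the libraries as labelled. Ehmt2 fell to 2342, 2891 and 3026 in mutant-labelled RGCs, against 3712, 3554 and 3839 in WT RGCs (log2 fold change -0.43, SE 0.11, limma adjusted p = 0.0332). Each library held between 10551825 and 12259494 assigned reads over 19864 to 21660 genes with a read. WT RGC library 3 lay towards the mutant-labelled libraries in several lists below, and mutant-labelled RGC library 1 held the most microglial RNA of the 9. That library also had the highest summed endothelial and pericyte markers (10605, against 4184 to 6826 in the others). The same held for astrocyte markers (4057, against 1421 to 2678) and pigment epithelium and lens markers (910, against 295 to 455). Its ganglion cell marker sum, 21056, was the lowest of the RGC libraries. Among mutant-labelled RGC libraries it had the highest Pcgf5 and Bmi1 and the lowest Pcgf2 and Kdm2b values.

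RefSeq promoter windows were matched for 8 of the 10 genes, with 13 windows in all; Pcgf1 and Rybp are named only. The sequences printed are the 250 bases before an annotated start, on the strand of the gene, for the PCGF genes called between genotypes and their closest paralogues: Pcgf5 with Pcgf3, and Bmi1 with Pcgf2. CpG dinucleotides, the letters that the Kdm2b zinc finger recognises when unmethylated, are in capitals and all other bases in lower case. Coordinates are RefSeq GRCm38.p6, 1-based. Pcgf5 (gene span chr19:36348329-36460970) has 3 annotated starts on the plus strand, at chr19:36348079-36348328, chr19:36378817-36379066 and chr19:36409498-36409747; the second and the third lie inside the gene. The Pcgf3 window is chr5:108461009-108461258 on the plus strand, the Bmi1 window chr2:18676768-18677017 on the plus strand, and the Pcgf2 window chr11:97699649-97699898 on the minus strand. The Pcgf2 window also lies inside its gene (span chr11:97688821-97702434), away from the 5' end.
Pcgf5 start 1: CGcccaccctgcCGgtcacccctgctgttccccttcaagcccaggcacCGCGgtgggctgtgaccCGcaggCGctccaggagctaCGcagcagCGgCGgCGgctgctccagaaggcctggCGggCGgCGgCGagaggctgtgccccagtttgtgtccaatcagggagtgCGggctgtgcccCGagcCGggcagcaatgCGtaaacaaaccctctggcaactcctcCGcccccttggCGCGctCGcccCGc
Pcgf5 start 2: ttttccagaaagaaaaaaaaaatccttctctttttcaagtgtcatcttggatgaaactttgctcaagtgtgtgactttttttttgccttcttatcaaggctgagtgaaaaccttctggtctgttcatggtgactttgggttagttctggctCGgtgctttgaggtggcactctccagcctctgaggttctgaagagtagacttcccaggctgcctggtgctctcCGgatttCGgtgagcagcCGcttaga
Pcgf5 start 3: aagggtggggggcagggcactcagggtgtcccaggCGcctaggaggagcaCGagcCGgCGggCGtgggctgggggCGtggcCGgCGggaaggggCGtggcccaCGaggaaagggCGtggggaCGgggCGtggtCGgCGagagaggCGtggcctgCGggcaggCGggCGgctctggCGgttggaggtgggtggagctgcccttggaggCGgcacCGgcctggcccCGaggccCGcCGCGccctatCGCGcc
Pcgf3: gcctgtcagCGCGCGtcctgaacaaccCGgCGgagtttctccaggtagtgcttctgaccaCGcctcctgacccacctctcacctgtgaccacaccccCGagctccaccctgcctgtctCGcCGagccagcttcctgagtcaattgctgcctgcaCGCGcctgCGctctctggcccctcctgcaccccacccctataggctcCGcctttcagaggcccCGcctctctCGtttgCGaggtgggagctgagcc
Bmi1: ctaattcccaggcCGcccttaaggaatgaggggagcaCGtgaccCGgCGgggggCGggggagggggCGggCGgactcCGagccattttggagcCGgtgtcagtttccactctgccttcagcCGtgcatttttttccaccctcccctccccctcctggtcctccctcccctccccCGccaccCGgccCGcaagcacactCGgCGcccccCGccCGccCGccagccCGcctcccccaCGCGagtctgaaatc
Pcgf2: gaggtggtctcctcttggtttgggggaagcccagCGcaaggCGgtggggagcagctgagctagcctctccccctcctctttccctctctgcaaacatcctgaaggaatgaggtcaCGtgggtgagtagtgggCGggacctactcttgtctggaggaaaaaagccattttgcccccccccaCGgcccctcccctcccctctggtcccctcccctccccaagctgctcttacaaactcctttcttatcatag

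The Pcgf5 starts differed in base composition. Starts 1 and 3 held 23 and 28 CpG dinucleotides in 250 bases, more than in 86.7% and 92.4% of the 32851 mouse windows of the same length, whereas start 2 held 4, more than in 37.8%. Bmi1 held 21 (83.7%) and Pcgf3 16 (74.6%), and the window inside Pcgf2 held 5 (44.4%). No window at the 5' end of Pcgf2 was among those matched, so its value is not set against that of Bmi1. Of the 13 windows, 11 lay above the median of 6 CpG over all windows, and Kdm2b, whose product binds such DNA, had windows with 27, 12, 36 and 38, the windows of the last pair overlapping each other. The GC box GGGCGG (or CCGCCC on the other strand) was in 10 of the 13 windows against 32.7% of all windows. CCAAT (or ATTGG) was in 3 of 13 against 33.8% of all windows, TATAAA (or TTTATA) in 0 of 13 against 12.4%, and the E2F-type TTTCCCGC (or GCGGGAAA) in 0 of 13 against 0.895%. A match of letters is a description of the window. The counts are per gene, so which Pcgf5 start was used in these cells was not measured.

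Between genotypes, the RGC fraction labelled mutant had more Pcgf5 and Bmi1 RNA than WT RGCs. The RING genes, Pcgf1, Pcgf3, Pcgf6 and Rybp gave values that passed no test. Pcgf5 was 2.05-fold higher (95% interval 1.41 to 2.96) and Bmi1 was higher by 0.31 on the log2 scale. Pcgf2 and Kdm2b did not pass the test, but their mutant-labelled libraries all lay below all WT libraries. Thus 2 of 10 members were called higher and none lower at a limma adjusted p under 0.05, beside 26% of the 15276 genes tested (13.7% higher and 12.3% lower), a share near that background. The median log2 fold change of the 10 members was 0.039, against 0.0043 over all genes tested. The authors' deposited table called Pcgf5 alone among the members, beside 5.45% of its genes called higher and 6.48% called lower.

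Pcgf5, a variant PRC1 subunit, had 319, 266 and 253 normalised counts in mutant-labelled RGCs, against 107, 125 and 185 in WT RGCs. The groups did not overlap, and WT library 3 was the highest of the WT libraries. The means were 279 ± 35.1 in mutant-labelled RGCs and 139 ± 41.1 in WT RGCs (SD, n = 3 each). The log2 fold change was 1.03 (SE 0.22, 95% interval 0.50 to 1.56, limma adjusted p = 0.0282; adjusted p = 0.000173 in the authors' deposited table), and 9.62% of the genes tested changed by more. The call was made at low depth: 110, 120 and 170 reads were assigned to Pcgf5 in the WT RGC libraries. Leaving out single libraries gave log2 fold changes of 0.87 to 1.26. The limma adjusted p was 0.115, 0.1003 and 0.00374 without WT library 1, 2 and 3, and 0.0554, 0.0737 and 0.0673 without mutant-labelled library 1, 2 and 3. Without WT library 1 or 2 or mutant-labelled library 2 or 3, only 3 to 9 of all genes tested were called. In those fits the lost call was not particular to Pcgf5. Without mutant-labelled library 1, 2284 genes were still called and Pcgf5 was not. The span of Pcgf5 holds 1808 bases of a pseudogene, Gm9042, whose reads were not separated here.

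Pcgf3, the paralogue of Pcgf5, was not called. Pcgf3 had 2023, 1917 and 1855 normalised counts in mutant-labelled RGCs, against 2261, 2244 and 1793 in WT RGCs. The groups overlapped, because WT library 3 lay below every mutant-labelled library (log2 fold change -0.11, 95% interval -0.36 to 0.13, limma adjusted p = 0.437). The ratio of Pcgf5 to Pcgf3 counts was therefore 0.158, 0.139 and 0.137 in mutant-labelled RGCs, against 0.0478, 0.0559 and 0.104 in WT RGCs. All 3 mutant-labelled ratios lay above all WT ratios, by a factor of 2.21 between the group means on the log2 scale (two-sided exact permutation test, p = 0.1, the smallest that 3 against 3 libraries allow; 0.133 after Benjamini-Hochberg adjustment over the 4 pairs compared). Counts were not divided by transcript length, so a ratio tells how the pair differed between groups, not which gene had more transcripts.

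Bmi1 and Pcgf2, the canonical PCGF pair, lay in opposite directions. Bmi1, a gene needed for self-renewal of several stem cell types, had 1660.3, 1447 and 1455 normalised counts in mutant-labelled RGCs, against 1170.5, 1194 and 1309 in WT RGCs. Every mutant-labelled library was higher (log2 fold change 0.31, SE 0.08, 95% interval 0.11 to 0.51, limma adjusted p = 0.0394). The authors' deposited table gives Bmi1 an adjusted p of 0.225, and the limma call was kept only without WT library 3 when single libraries were left out (0.0186, and 0.0650 to 0.147 without another library). Pcgf2 had 941, 1147 and 1146 in mutant-labelled RGCs, against 1429.7, 1325 and 1194 in WT RGCs. The Pcgf2 groups did not overlap, and the difference did not pass the test (log2 fold change -0.29, 95% interval -0.55 to -0.03, limma adjusted p = 0.0843). The ratio of Pcgf2 to Bmi1 was 0.567, 0.793 and 0.788 in mutant-labelled RGCs, against 1.22, 1.11 and 0.913 in WT RGCs. The group means of this ratio differed by a factor of 0.659 with no overlap (two-sided exact permutation p = 0.1, the smallest possible; 0.133 adjusted over 4 pairs).

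Neither RING gene passed the test. Rnf2, the main ligase subunit, had 1353, 1383 and 1338 normalised counts in mutant-labelled RGCs, against 1212, 1163 and 1350.1 in WT RGCs. WT library 3 lay within the mutant-labelled range (log2 fold change 0.13, 95% interval -0.05 to 0.31, limma adjusted p = 0.211). Ring1 had 602, 582 and 578 in mutant-labelled RGCs, against 563, 529 and 633 in WT RGCs, and the groups overlapped (log2 fold change 0.04, 95% interval -0.18 to 0.25, limma adjusted p = 0.789). The ratio of Ring1 to Rnf2 differed little, by -0.10 on the log2 scale, with all mutant-labelled libraries below all WT libraries (exact permutation p = 0.1, 0.133 adjusted over 4 pairs).

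Among the other variant subunits, Kdm2b had 1311, 1462 and 1499.8 normalised counts in mutant-labelled RGCs, against 1699, 1608 and 1564 in WT RGCs. The groups did not overlap and the test was not passed (log2 fold change -0.19, 95% interval -0.37 to -0.01, limma adjusted p = 0.0973). A lncRNA, Gm33118, overlaps Kdm2b over 10710 bases, and the strand setting of the counting is unknown. Pcgf1, the partner of Kdm2b, had 198, 202 and 183 in mutant-labelled RGCs, against 167, 175 and 229 in WT RGCs. The highest Pcgf1 value of the 6 was in WT library 3 (log2 fold change 0.04, 95% interval -0.33 to 0.41, limma adjusted p = 0.853). Pcgf6 had 379, 343 and 367 in mutant-labelled RGCs, against 358, 315 and 354 in WT RGCs (log2 fold change 0.09, limma adjusted p = 0.537). Rybp, a subunit of variant complexes, had 502, 477 and 462 in mutant-labelled RGCs, against 565, 591 and 472 in WT RGCs (log2 fold change -0.17, limma adjusted p = 0.257). Both genes overlapped between the groups, and the span of Rybp holds 1033 bases of a pseudogene, Gm18422. In all, 2 members lay wholly higher (Pcgf5 and Bmi1) and 2 wholly lower (Pcgf2 and Kdm2b), beside 51.1% of the genes tested with no overlap in either direction (26.2% higher and 24.9% lower). These same 4 members had an unadjusted limma p under 0.05, beside 45% of the genes tested.

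**Figure D1:**
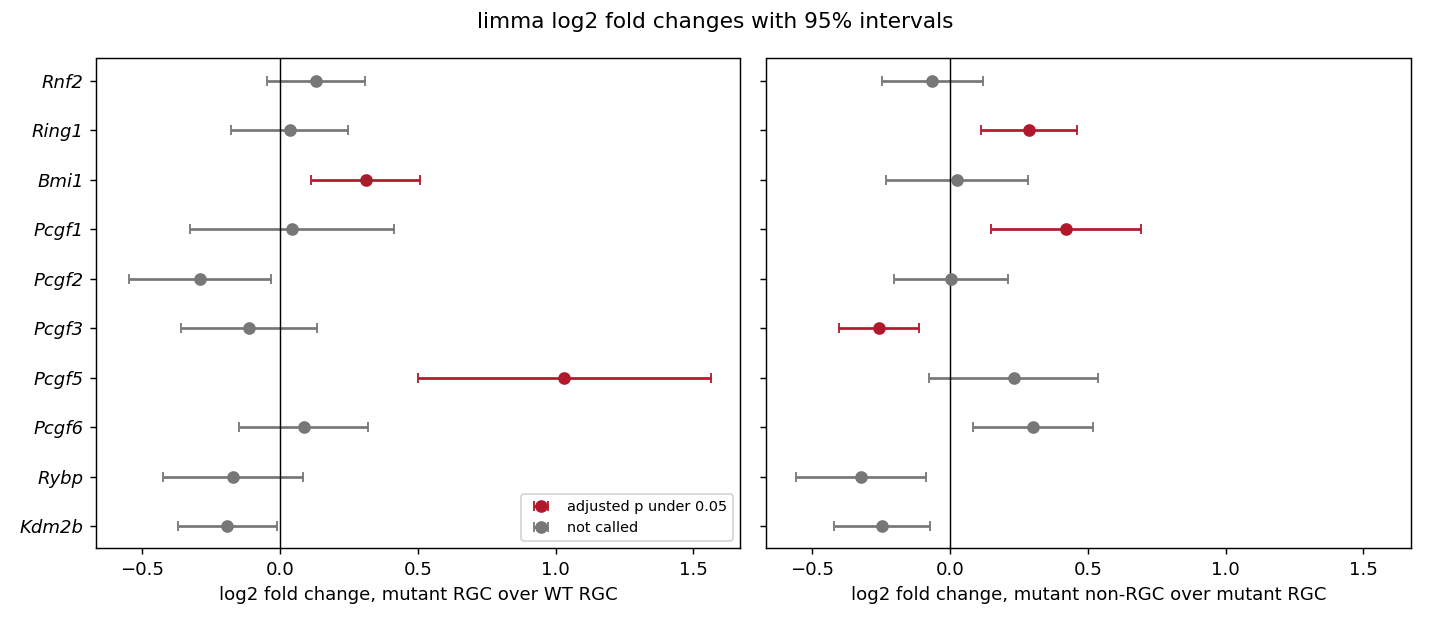
Log2 fold change of each of the 10 genes (points) with its 95% interval from limma (bars), for mutant-labelled RGC over WT RGC libraries on the left and mutant-labelled non-RGC over mutant-labelled RGC libraries on the right, 3 libraries a group, with red for a limma adjusted p under 0.05. Pcgf5 at 1.03 and Bmi1 at 0.31 are the called genes on the left; Ring1 at 0.29, Pcgf1 at 0.42 and Pcgf3 at -0.26 are those on the right.

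Cell type markers and proliferation genes moved with the genotype in the same libraries. Summed over 20 ganglion cell markers on a scale common to the 9 libraries, the level was 21056 to 34197 in mutant-labelled RGCs, against 44326 to 52420.2 in WT RGCs, with 10 of 20 markers lower, none higher and none at 0 in any library. Thy1, the bead antigen, had 955, 1550.1 and 1456 normalised counts in mutant-labelled RGCs, against 2302, 2409 and 2063 in WT RGCs (log2 fold change -0.80, limma adjusted p = 0.0305), and Pou4f2, a ganglion cell transcription factor gene, had a log2 fold change of -0.88 (limma adjusted p = 0.0579). Over 20 proliferation genes the sum was 38000.3 to 39073 in mutant-labelled RGCs, against 16652 to 28964 in WT RGCs, the highest WT value being that of library 3. Of them, 19 of 20 rose, including Top2a, a DNA topoisomerase gene of dividing cells (log2 fold change 0.87, limma adjusted p = 0.0245), and Mki67, a marker of cycling cells (0.80, 0.0444). Progenitor and Mueller glia markers (20 genes) summed to 44449 to 46130.0 in mutant-labelled RGCs, against 28843 to 41548 in WT RGCs, with 7 higher. Of 15 photoreceptor markers 7 rose, with sums of 14802 to 21561 in mutant-labelled RGCs, against 10142 to 13878 in WT RGCs. Of 10 amacrine cell markers 7 rose and 1 fell, with sums of 13447 to 16064 in mutant-labelled RGCs, against 10047 to 11415 in WT RGCs. Of 18 dissociation and immediate early genes 6 fell, with sums of 19945 to 22615 in mutant-labelled RGCs, against 29165 to 30501 in WT RGCs. Beside these marker counts, 13.7% of all genes tested were called higher and 12.3% lower. In bulk libraries, fewer cells of a type and less RNA per cell cannot be told apart, and the part of these shifts in the Pcgf5 and Bmi1 values was not tested. Microglial markers (14 genes) summed to 2235 to 8345 in mutant-labelled RGCs, the highest in library 1, against 3591 to 5181 in WT RGCs, with none called. Without that library the log2 fold change between genotypes was 0.93 for Pcgf5, 0.25 for Bmi1, -0.20 for Pcgf2 and -0.13 for Kdm2b.

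Within the mutant-labelled retinas, the non-RGC fraction had more Ring1 and Pcgf1 RNA and less Pcgf3 RNA than the RGC fraction. Pcgf1 was higher by 0.42 and Ring1 by 0.29 on the log2 scale, and Pcgf3 fell by 0.26. Pcgf5 and Bmi1, the genes called between genotypes, were not called between fractions, and the mutant-labelled RGC libraries are shared by both comparisons. These 3 of 10 members stand beside 17.1% of the 15178 genes tested (5.07% higher and 12% lower). The median log2 fold change of the 10 members was 0.015, against 0.013 over all genes. The authors' deposited table called none of the 10, beside 1.17% of its genes called higher and 5.31% called lower, and gives adjusted p values of 0.398, 0.237 and 0.385 for Ring1, Pcgf1 and Pcgf3.

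Ring1 had 699.8, 728 and 776 normalised counts in mutant-labelled non-RGC cells, against 621, 592 and 591 in mutant-labelled RGCs. All non-RGC libraries were higher (log2 fold change 0.29, SE 0.07, 95% interval 0.11 to 0.46, limma adjusted p = 0.0383). Rnf2 had 1317, 1217 and 1466 in mutant-labelled non-RGC cells, against 1396, 1406 and 1369 in mutant-labelled RGCs, and the groups overlapped (log2 fold change -0.06, 95% interval -0.25 to 0.12, limma adjusted p = 0.625). The ratio of Ring1 to Rnf2 was thus 0.532, 0.598 and 0.530 in mutant-labelled non-RGC cells, against 0.446, 0.421 and 0.432 in mutant-labelled RGCs. That is a factor of 1.28 between the group means, with no overlap (two-sided exact permutation p = 0.1, the smallest possible; 0.2 adjusted over 4 pairs). Leaving out single libraries moved the Ring1 adjusted p between 0.0328 and 0.151, and the call was kept only without mutant-labelled RGC library 1.

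Pcgf1 had 246, 264 and 292 normalised counts in mutant-labelled non-RGC cells, against 204, 206 and 187 in mutant-labelled RGCs. The groups did not overlap (log2 fold change 0.42, SE 0.12, 95% interval 0.15 to 0.69, limma adjusted p = 0.0475), but the call was lost when any single library was left out (adjusted p 0.0510 to 0.180). Kdm2b, its partner, had 1174, 1210.1 and 1299 in mutant-labelled non-RGC cells, against 1352, 1487 and 1535 in mutant-labelled RGCs. Kdm2b thus lay on the other side, with no overlap and no call (log2 fold change -0.25, 95% interval -0.42 to -0.07, limma adjusted p = 0.0599). Rybp had 379, 363 and 440.1 in mutant-labelled non-RGC cells, against 518, 485 and 473 in mutant-labelled RGCs (log2 fold change -0.32, 95% interval -0.56 to -0.09, limma adjusted p = 0.0684). Pcgf6 had 467, 427 and 482 in mutant-labelled non-RGC cells, against 391, 349 and 376 in mutant-labelled RGCs (log2 fold change 0.30, 95% interval 0.08 to 0.52, limma adjusted p = 0.0649). Neither gene overlapped between the fractions, and neither passed the test. The ratio of Pcgf6 to Pcgf1, both higher in non-RGC libraries, differed by -0.12 on the log2 scale (exact permutation p = 0.2, 0.267 adjusted over 4 pairs).

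Pcgf3 had 1692, 1594 and 1679 normalised counts in mutant-labelled non-RGC cells, against 2087, 1949 and 1899 in mutant-labelled RGCs. Every non-RGC library was lower (log2 fold change -0.26, SE 0.06, 95% interval -0.40 to -0.11, limma adjusted p = 0.031). The Pcgf3 adjusted p ran from 0.0391 to 0.107 with single libraries left out, and was kept without mutant-labelled RGC library 1 and without non-RGC library 3. Pcgf5 had 331, 305 and 369.9 in mutant-labelled non-RGC cells, against 329, 270.5 and 259 in mutant-labelled RGCs. These groups overlapped through mutant-labelled RGC library 1 (log2 fold change 0.23, 95% interval -0.07 to 0.54, limma adjusted p = 0.275). The ratio of Pcgf5 to Pcgf3 was 0.196, 0.192 and 0.221 in mutant-labelled non-RGC cells, against 0.158, 0.139 and 0.137 in mutant-labelled RGCs. The factor was 1.40 with no overlap (two-sided exact permutation p = 0.1; 0.2 adjusted over 4 pairs).

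Neither gene of the canonical pair was called between fractions. Bmi1 had 1534, 1409 and 1828 normalised counts in mutant-labelled non-RGC cells, against 1713, 1471 and 1489 in mutant-labelled RGCs (log2 fold change 0.03, 95% interval -0.23 to 0.28, limma adjusted p = 0.904). Pcgf2 had 1133, 1106 and 1069 in mutant-labelled non-RGC cells, against 970.3, 1166 and 1173 in mutant-labelled RGCs (log2 fold change 0.00, 95% interval -0.20 to 0.21, limma adjusted p = 0.978). Both genes overlapped, and so did their ratio (log2 difference -0.02, exact permutation p = 0.8). In all, 3 members lay wholly higher in non-RGC libraries (Ring1, Pcgf1 and Pcgf6) and 3 wholly lower (Pcgf3, Rybp and Kdm2b), beside 37.7% of the genes tested with no overlap in either direction (17.1% higher and 20.6% lower). These same 6 members had an unadjusted limma p under 0.05, beside 31.8% of the genes tested.

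Cell type markers and proliferation genes moved with the fraction too. The 20 ganglion cell markers summed to 5991 to 12604 in mutant-labelled non-RGC cells, against 21056 to 34197 in mutant-labelled RGCs, with 13 lower and none at 0. The 20 proliferation genes summed to 45391 to 46744 in mutant-labelled non-RGC cells, against 38000.3 to 39073 in mutant-labelled RGCs, with 10 higher. The 14 microglial markers summed to 216 to 276 in mutant-labelled non-RGC cells, against 2235 to 8345 in mutant-labelled RGCs, with all 14 lower. Microglial RNA thus lay mainly in the bound fraction. Beside these marker counts, 5.07% of all genes tested were called higher and 12% lower. Thy1 had 218, 364 and 10.6 normalised counts in mutant-labelled non-RGC cells. Its log2 fold change was -3.76 (limma adjusted p = 0.0653), so the bead antigen itself missed the threshold, with non-RGC library 3 far below the others. Pou4f2 had 355, 516 and 25.5 in the non-RGC libraries. Library 3 also had the lowest ganglion cell marker sum, 5991, and the fewest genes with a read, 19864. Within its group it held the highest values of all members but Pcgf2 and Pcgf3. Without it the limma adjusted p was 0.0560 for Ring1 and 0.0773 for Pcgf1. The part of the marker shifts in the Ring1, Pcgf1 and Pcgf3 values was not tested.

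Over the 3 groups on the common scale, Kdm2b was the 1 member with a full order and no overlap. It had 1126, 1164 and 1257 normalised counts in mutant-labelled non-RGC cells, 1323, 1416 and 1468 in mutant-labelled RGCs, and 1713, 1630.3 and 1571 in WT RGCs. The same falling order without overlap was seen in 12.8% of 15264 genes, and the opposite order in 6.9%, which included no member. Pcgf5 had 293 to 358 in mutant-labelled non-RGC cells, 247 to 322 in mutant-labelled RGCs and 108 to 186 in WT RGCs, so that the mutant-labelled fractions overlapped and WT RGCs lay below both. Bmi1 lay the same way over the 3 groups. Pcgf2 was the reverse, with 1035 to 1087 in mutant-labelled non-RGC cells, 949 to 1121 in mutant-labelled RGCs and 1199.9 to 1442 in WT RGCs. Ring1, Pcgf1 and Pcgf6 lay higher in mutant-labelled non-RGC cells than in all 6 RGC libraries, and Pcgf3 and Rybp lay lower, while the mutant-labelled and WT RGC libraries of these 5 genes overlapped.

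**Figure D2:**
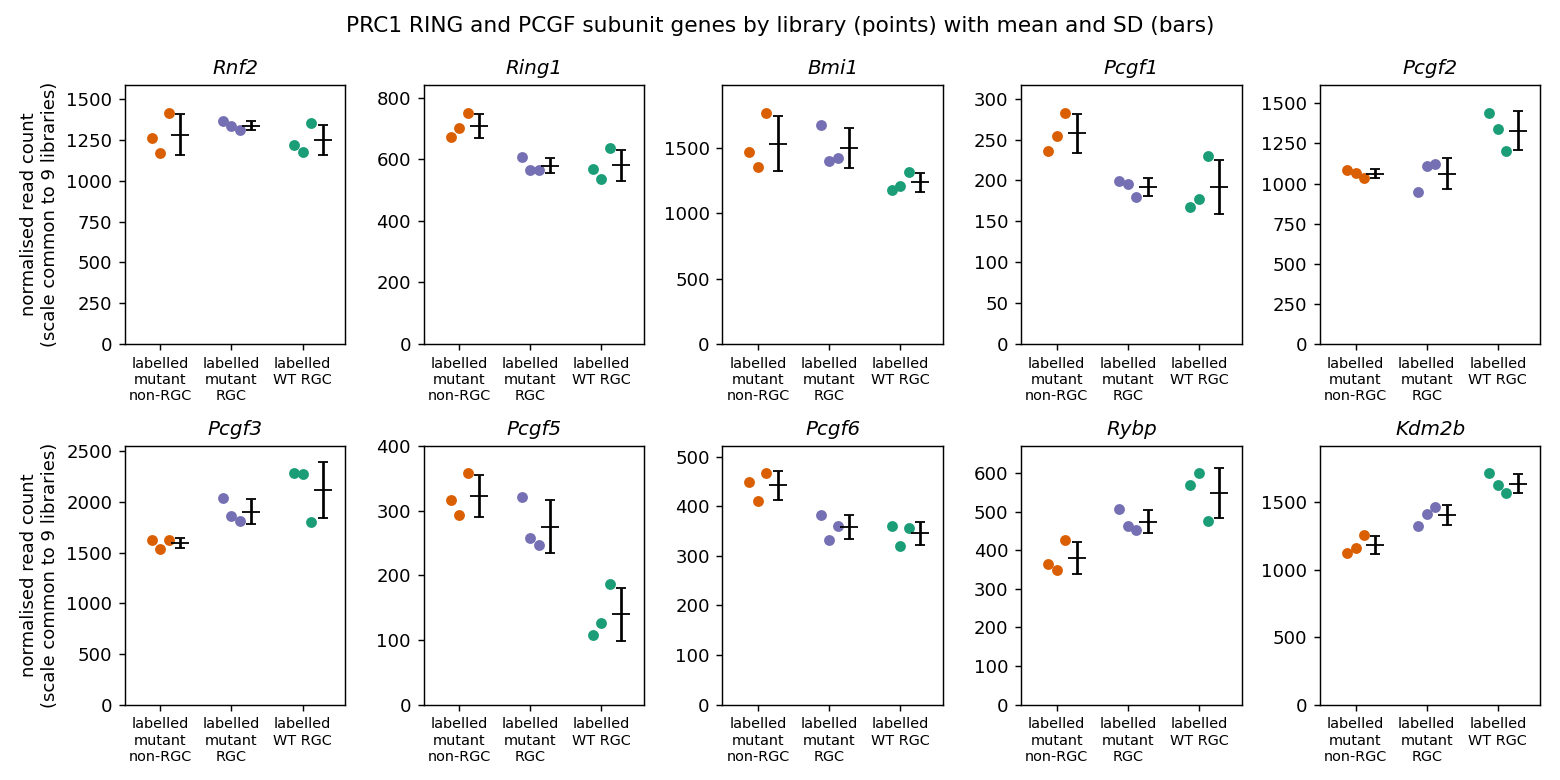
Normalised read count of each of the 10 genes in each of 9 libraries (points), on size factors common to all 9, with the mean and SD of 3 libraries beside them (bars), for libraries labelled mutant non-RGC, mutant RGC and WT RGC; axes start at 0 and differ between genes. Pcgf5 is lowest in the 3 WT RGC libraries at 108 to 186, and Kdm2b steps down without overlap towards the non-RGC libraries at 1126 to 1257.

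**Figure D3:**
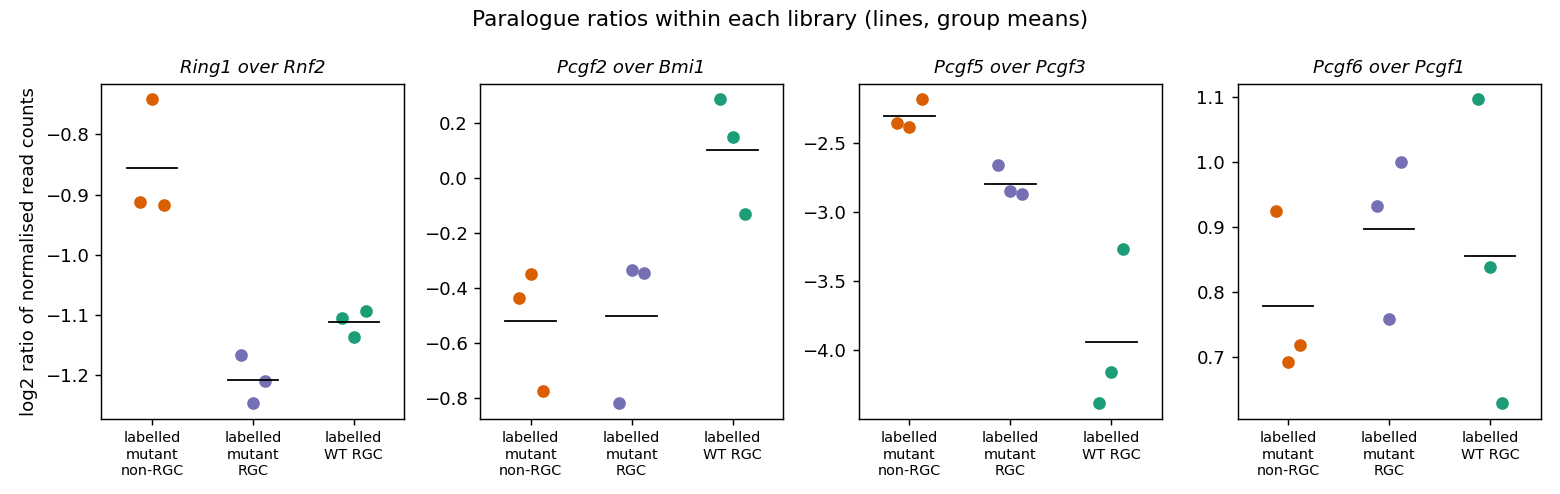
Log2 ratio of normalised read counts for 4 pairs of paralogues in each library (points) with the group mean (lines), for libraries labelled mutant non-RGC, mutant RGC and WT RGC; each panel has its own log2 axis, which does not start at 0. Pcgf2 over Bmi1 is lower and Pcgf5 over Pcgf3 higher in all mutant-labelled RGC than in all WT RGC libraries, and Ring1 over Rnf2 is higher in all non-RGC than in all mutant-labelled RGC libraries.

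The 5 genes with the pattern most like that of Pcgf5 were Mtap, Limd1, Wipi1, Gulo and Ppp6r3. Pearson r of their log2 values with Pcgf5 over the 9 libraries was 0.998, 0.997, 0.997, 0.996 and 0.996, and 2017 of 12686 genes compared had r above 0.9. The 9 points share their group, their depth and their mix of cells. This choice fixes how their levels lie over the groups, so the values are a description. Mtap, a methionine salvage enzyme gene, had 388 to 508 in mutant-labelled RGCs, against 192 to 298 in WT RGCs. Limd1 encodes a LIM domain protein and Wipi1 an autophagy protein.

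Genes listed as partners of the RING and PCGF dimer were called in both directions. Of 11 genes listed as canonical partners, which include the CBX readers and Sfmbt genes, 1 rose and 2 fell in mutant-labelled against WT RGCs. Of 19 variant partners 3 rose and 1 fell. Both shares lay near the 26% of all genes tested that were called. Cbx6, a CBX reader gene, fell by 0.50 in log2 terms (limma adjusted p = 0.0244), to 1671, 1843 and 1943 normalised counts in mutant-labelled RGCs, against 2776, 2645 and 2330.5 in WT RGCs. Cbx8, another reader gene, fell by 0.31 (limma adjusted p = 0.0479). The gene of this list that rose was Sfmbt1, of the MBT repeat family, by 0.32 (limma adjusted p = 0.0378). Sfmbt1 is not a CBX reader, and no CBX reader gene was called higher. Among the variant partners, E2f6, the DNA-binding repressor of the Pcgf6 complex, rose by 0.52 (limma adjusted p = 0.0244), with 697, 765 and 694 in mutant-labelled RGCs, against 492, 461 and 549 in WT RGCs. Bcor, the scaffold of the Pcgf1 complex, rose by 0.23 (limma adjusted p = 0.0377), and Fbrsl1, a relative of the Auts2 gene of Pcgf3 and Pcgf5 complexes, fell by 0.46 (0.0271). The list medians were 0.06 and 0.03 on the log2 scale, against 0.0043 over all genes.

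Of 11 PRC2 subunit genes, 3 rose and 1 fell, with a list median of 0.30, beside 13.7% of all genes tested called higher and 12.3% called lower. Suz12, a core PRC2 subunit, had 2132, 2076 and 2052 normalised counts in mutant-labelled RGCs, against 1271, 1327 and 1626 in WT RGCs (log2 fold change 0.58, limma adjusted p = 0.0243). Aebp2, an accessory subunit, rose by 0.34 (limma adjusted p = 0.026), and Ezh2 was the other gene that rose. Phf1, which targets PRC2 to chromatin, fell by 0.71 (limma adjusted p = 0.0225). Of 11 genes of H2A deubiquitination, the step that removes the PRC1 mark, 1 rose and 2 fell (median 0.05), a share near the 26% of all genes tested. Asxl3, a cofactor of the deubiquitinase Bap1, fell by 0.79 (limma adjusted p = 0.0431) and Foxk2, a transcription factor gene, by 0.22 (0.0457), and Hcfc1, a chromatin cofactor gene, rose by 0.26 (0.0422).

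Between fractions, the 4 partner lists had 2 of 11, 3 of 19, 2 of 11 and 2 of 11 genes called, near the 17.1% of all genes tested. Of the canonical partners, 2 rose and none fell in mutant-labelled non-RGC cells. Cbx2, a CBX reader gene, rose by 0.40 (limma adjusted p = 0.0156) and Cbx7, another, by 0.81 (0.0229). Of 19 variant partners, E2f6 rose by 0.35 (limma adjusted p = 0.0206), while Dcaf7, a WD repeat gene of Pcgf3 and Pcgf5 complexes, fell by 0.34 (0.00888) and Bcorl1, the paralogue of Bcor, by 0.42 (0.0149). Of 11 PRC2 genes, Ezh2 rose by 0.25 (limma adjusted p = 0.0242) and Phf19, an accessory subunit, by 0.49 (0.0471), and none fell. Of 11 genes of H2A deubiquitination, Usp16, an H2A deubiquitinase gene, rose by 0.35 (limma adjusted p = 0.0172) and Asxl3 fell by 0.68 (0.0218). The medians of the 4 lists were 0.06, -0.02, 0.12 and 0.11, against 0.013 over all genes.

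**Figure D4:**
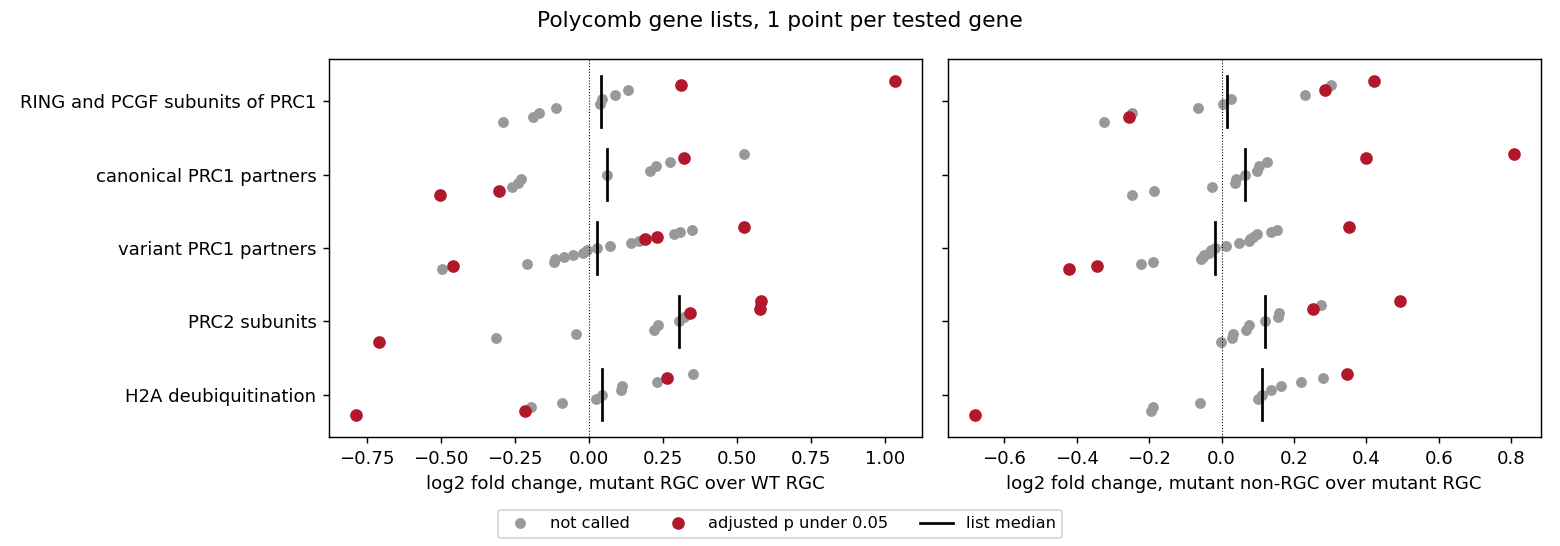
Log2 fold change of each tested gene (points) in the RING and PCGF list and in 4 lists of Polycomb partner genes, for mutant-labelled RGC over WT RGC libraries on the left and mutant-labelled non-RGC over mutant-labelled RGC libraries on the right, with red for a limma adjusted p under 0.05 and a black line for the list median; the panels have different horizontal ranges. Pcgf5 at 1.03 lies farthest to the right of all points on the left, and the PRC2 median is 0.30 there.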

How the data were processed

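Per the labels' protocols and design text, poly(A) RNA was made into NEBNext libraries and sequenced from a single end over 75 cycles. Per the submitters' processing notes, the tools were FastQC, STAR 2.3, featureCounts and DESeq, with build mm10; their settings, strand included, are not stated. The names of the deposited tables mention sorting, primary alignments and duplicate removal; without molecular identifiers, removing duplicates of single reads lowers the counts of abundant short transcripts. Each table lists, per the file headers, the authors' mean normalised count of each condition (a score, since it is scaled by size factors), the log2 of their ratio, and the authors' p-value before and after adjustment.

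The deposited means were resolved into whole reads in 3 libraries a group, for 99.97% to 100% of genes above 0 in each group, with a largest distance from a whole number under the tolerance of 1e-09. The mutant-labelled RGC reads came out identical from both tables for 23953 genes. The 6 genes Ank2, Kif1b, Reln, Adcy1, Map1b and Dync1h1 had no unique solution in at least 1 group. The library values are therefore reconstructed and carry no sample name. Reads were divided by the authors' size factors of each comparison, and a scale common to 9 libraries was used for levels over 3 groups. Tests used limma 3.58.1 in R 4.3.3 with a variance trend on log2(value + 1), for genes averaging 10 or more, and Benjamini-Hochberg adjustment over all of them; a call is an adjusted p under 0.05. Adding 1 shrinks the fold change of genes with few reads. Ratios of 4 paralogue pairs were compared by two-sided exact permutation tests over libraries. Both the recovery and the limma step were tested on simulated data. Alternatives were other scalings, pseudocounts of 0.5 and 5, no filter, voom weights on the recovered reads, 1 fit of 9 libraries, the authors' adjusted p and each library left out.

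The members and the gene lists were chosen with earlier results of these data known. The text names all 10 members, and from each Polycomb list up to 3 genes with the smallest adjusted p in each comparison, where they passed the test. From the marker lists it names Thy1, Pou4f2, Mki67 and Top2a. It also names the 5 genes most like Pcgf5 by Pearson correlation among genes with a mean of at least 50; predicted genes were passed over. Ezh2 and Ehmt2 were named as the targeted genes. No transcript lengths or protein sequences were used. Motifs were searched on both strands of the 250 bases before each RefSeq start.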

Additional observations from a re-analysis of the deposited data

How the results depend on the processing

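In mutant-labelled against WT RGCs, the number of members called was 2, and it was 1 (Pcgf5) under upper-quartile scaling, with no filter on low values and in the authors' deposited table. With single libraries left out it ran from 0 to 6: it was 0 without WT library 1 or 2 or any mutant-labelled library, and 6 without WT library 3 (Rnf2, Bmi1, Pcgf2, Pcgf3, Pcgf5 and Rybp). The number of all genes called was 3971, and ran from 3 to 6478 in those fits. It was still 2284 without mutant-labelled library 1, where 0 members were called. Pcgf5 kept its call in every alternative that used all libraries (adjusted p 0.000173 to 0.0307). One fit of 9 libraries called Pcgf2, Pcgf5 and Kdm2b. In mutant-labelled non-RGC cells against mutant-labelled RGCs, 3 members were called, against 1 with no filter (Pcgf3), 1 in the fit of 9 libraries (Kdm2b), 0 in the authors' deposited table, 4 under upper-quartile scaling (Pcgf6 added, adjusted p 0.0479), and 0 to 3 with single libraries left out, when all genes called ran from 438 to 3325. Total-count scaling kept 3 but lost Pcgf3 (adjusted p 0.0796) and gained Pcgf6 (0.0341), and voom weights left 2, without Pcgf1 (0.0542). Directions turned for small values only. Between genotypes, leaving out single libraries gave -0.023 to 0.106 for Ring1, -0.045 to 0.183 for Pcgf1 and -0.071 to 0.163 for the log2 ratio of Pcgf6 to Pcgf1. Between fractions it gave -0.080 to 0.108 for Bmi1, -0.085 to 0.052 for Pcgf2 and -0.180 to 0.107 for the ratio of Pcgf2 to Bmi1; Rnf2 was 0.0018 under total-count scaling, and Pcgf2 was -0.00018 in the authors' deposited table. The cause of these shifts was not tested. Total-count scaling put the median of all genes at 0.05 between genotypes and 0.08 between fractions. No paired analysis was possible because the deposited columns carry no replicate numbers. Pcgf5 had 110 to 348 reads a library, which limits its precision, and 3 libraries a group allow no exact permutation p under 0.1.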
